A study of Mus musculus with 6 samples.

Results

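The dual-specificity MAP kinase phosphatases described here are the products of 10 genes, Dusp1, Dusp2, Dusp4, Dusp5, Dusp6, Dusp7, Dusp8, Dusp9, Dusp10 and Dusp16. They were found on the array by gene name among the transcript spots, all probes included, which gave 15 probes, 1 for each of 6 genes and more than 1 for Dusp4, Dusp5, Dusp8 and Dusp16. All 10 were present among the 37074 gene names of the array, and all 10 belonged to the 20645 genes tested. The RNA was taken from osteoclast cultures that had received RANKL, the cytokine that drives osteoclast formation, for 5 days after being started from mouse bone marrow cells. The study's culture method had the growth factor M-CSF in the same medium. Of the 6 cultures, 3 came from Ano1fl/fl mice, which carry loxP-flanked copies of the chloride channel gene Ano1 and no Cre, and 3 from littermates that carry the same floxed alleles and Ctsk-Cre (Ctsk-Cre;Ano1fl/fl). Cre in these littermates is driven by the promoter of cathepsin K, a gene switched on as osteoclasts mature, so precursors and other cells of the culture that do not use this promoter would keep Ano1. The labels give no age for the mice. Below, the arrays labelled Ano1fl/fl are called the control arrays and the arrays labelled Ctsk-Cre;Ano1fl/fl the Cre arrays, and a difference is the Cre arrays minus the control arrays in mean log2 signal, after quantile normalization of the scanner's processed intensity.

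MAP kinases are the last step of 3-tiered kinase cascades, and they are switched on when a threonine and a tyrosine of their activation loop are both phosphorylated. The phosphatases of this family remove both phosphates, each binding the kinase through a docking domain, and many of their genes are themselves transcribed when a MAP kinase is active, which makes them part of a feedback loop. They differ in where they act and on what. One class is nuclear and quickly inducible (Dusp1, Dusp2, Dusp4 and Dusp5), another is cytoplasmic and acts mainly on ERK (Dusp6, Dusp7 and Dusp9), and the last acts mainly on JNK and p38 (Dusp8, Dusp10 and Dusp16). In the osteoclast lineage, ERK, JNK and p38 are all activated downstream of RANK, the receptor of RANKL, and ERK also downstream of the M-CSF receptor.

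The array read each gene through short stretches of its transcript, and a few of them are shown because the results below rest on these bases. The first 30 of the 60 bases of the probes of Dusp2, Dusp4, Dusp9, Dusp8 and Dusp16 are given as the array files hold them, with no bases in capitals.
Dusp2 A_52_P399934: gtgggcatctcgctgtaattggtgctgaaa
Dusp4 A_51_P347333: tcaagggacttcagtaagataacaatgcaa
Dusp4 A_51_P518051: aataacggcggtttccgctgccagagaaga
Dusp9 A_52_P648601: cactgagactctttgtgactgagggtggtc
Dusp8 A_51_P114314: agcataggctttccctggtggctttccacc
Dusp8 A_51_P263246: aaagctctgtttttactgtctggtatttaa
Dusp16 A_66_P116252: ctgtcagtccttcgtcactaatgtcgtatc
Dusp16 A_51_P242634: gtacaaaatggtgattttgagcaaaactag
Dusp16 A_52_P374825: ggctcttagccagaataatgacttaagttt

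Upstream of the genes, the 250 bases before the start of transcription were read from RefSeq for mouse build GRCm38.p6. Of the 10 genes, 8 had a promoter window. None was at hand for Dusp4 and Dusp9, although both have RefSeq transcripts. Both strands were searched for 5 short motifs: TGACGTCA, the palindrome bound by CREB and ATF factors, TGACTCA, bound by AP-1, CCGGAAGT, bound by ETS factors, CACGTG, the E-box, and TATAAA, the TATA box. None of these motifs contains another. TGACGTCA lay in the windows of Dusp1, 143 bases before the start, and of Dusp8, 107 and 63 bases before it, and among all 32851 windows 1.55% held it. CACGTG lay in the windows of Dusp1, at 126 bases, and of Dusp2, at 109 bases, and 6.02% of all windows held it. The other motifs were in 0 of the 8 windows, against 4.46% of all windows for TGACTCA, 2.88% for CCGGAAGT and 12.4% for TATAAA. The windows of these genes were rich in G and C, from 56.4% in Dusp6 to 77.2% in Dusp7, where the median over all windows was 52.4%. A match describes these letters and no binding was measured. The windows that held a motif are printed because they belong to 3 nuclear or JNK and p38 class genes whose signals are compared below, with the motifs in capitals.
Dusp1 promoter, chr17:26508473-26508722, minus strand: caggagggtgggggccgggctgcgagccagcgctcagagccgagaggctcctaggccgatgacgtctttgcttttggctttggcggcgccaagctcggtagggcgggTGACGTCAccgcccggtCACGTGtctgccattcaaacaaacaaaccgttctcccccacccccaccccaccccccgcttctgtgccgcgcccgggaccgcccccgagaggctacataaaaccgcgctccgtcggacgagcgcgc
Dusp2 promoter, chr2:127335909-127336158, plus strand: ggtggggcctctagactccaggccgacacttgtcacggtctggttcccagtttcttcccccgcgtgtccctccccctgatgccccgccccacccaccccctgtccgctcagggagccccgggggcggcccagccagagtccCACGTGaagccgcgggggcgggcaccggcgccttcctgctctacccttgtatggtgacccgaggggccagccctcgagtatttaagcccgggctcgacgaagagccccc
Dusp8 promoter, chr7:142095285-142095534, minus strand: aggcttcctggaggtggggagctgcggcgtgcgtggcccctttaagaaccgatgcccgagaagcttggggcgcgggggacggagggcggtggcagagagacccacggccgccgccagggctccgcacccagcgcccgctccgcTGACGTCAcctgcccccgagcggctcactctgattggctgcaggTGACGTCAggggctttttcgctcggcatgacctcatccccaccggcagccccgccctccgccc

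Of the 59305 transcript spots of an array, between 33480 and 34951 exceeded background by the scanner software's mark, 0 were saturated, and all 6 arrays shared 1 slide and 1 scan. Pearson's r over the tested probes, which are not independent replicates, lay between 0.994 and 0.997 for arrays of the same group and between 0.944 and 0.950 for arrays of different groups, so no array stood apart from its group. The 1 Ano1 probe failed to rise well above background on all 6 arrays, with log2 signals of 1.78, 1.76 and 1.78 on the control arrays and 1.70, 1.73 and 2.04 on the Cre arrays, so the deletion could not be checked and every direction below rests on the labels alone. Of 13 osteoclast markers, 12 were well above background on all 6 arrays (the exception, Calcr, on 2 of the 3 control arrays), 12 were higher and 1 was lower on the Cre arrays, and the summed normalized signal of the list was 222361 to 239832 on the control arrays and 616284 to 698396 on the Cre arrays. Outside the arrays, the study's assays give these genotypes the opposite order for osteoclast markers, whereas its blots of c-Fos protein give the order that Fos has here. Stromal and osteoblast markers had 9 of 13 tested genes higher and 2 lower, with a summed signal of 2999 to 3928 on the control and 55974 to 93446 on the Cre arrays, and B cell markers had 6 of 6 higher (7503 to 9039 and 29287 to 56983). Neutrophil markers had 7 of 10 lower and 1 higher (320315 to 337289 and 212422 to 264896), and mast cell and basophil markers 4 of 5 lower (3179 to 4385 and 656 to 1809). Macrophage markers had 2 of 12 higher and 4 lower, with differences from -4.62 (Cx3cr1) to 0.80, and their summed signal (565850 to 594096 and 579229 to 638556) rests mostly on the brightest of them. In every result below, a change in RNA per cell and a change in the share of a cell type that uses the gene cannot be told apart, and the part of these cell types in any difference was not tested.

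Across the family, 8 of the 10 genes passed limma's test at an adjusted p under 0.05, 4 of them higher and 4 lower on the Cre arrays. Dusp2, Dusp4, Dusp8 and Dusp16 were higher, Dusp5, Dusp6, Dusp7 and Dusp9 were lower, and Dusp1 and Dusp10 did not pass. Among all 20645 genes the share called was 51.5%, with 23.0% higher and 28.5% lower, so a call on its own was common in this comparison. Larger changes were less so. A change of more than 2-fold that also passed the test was seen in 5 of the 10 genes (Dusp2, Dusp4, Dusp8 and Dusp16 higher, Dusp9 lower) and in 17.1% of all genes. The count depended on the starting signal and background handling, since with normexp correction and with the median spot brightness of the series table the brightest Dusp8 probe was below 2-fold (log2 differences of 0.78 and 0.91), which left 4 genes, against 9.60% and 11.7% of all genes under these settings. The groups lay apart, with no overlap of single arrays, in 9 of the 10 genes and in 64.0% of all genes tested. The median log2 difference of the family was 0.35, and that of all genes tested was -0.06. Of the 15 probes, 12 passed, 8 higher and 4 lower, where 52.4% of all 31848 probes tested passed, 21.8% higher and 30.6% lower. More than 2-fold changes were called in 8 of the 15 probes and in 17.0% of all probes. The 12 and the 8 both include a dimmer Dusp16 probe that was tested through its Cre arrays alone. With normexp there were 6 of 15 against 8.20%, and with the series table there were 6 against 10.5%. With 3 arrays against 3, a two-sided exact permutation test of a single gene cannot give a p under 0.1, so the p-values given are those of limma, adjusted over all probes tested.

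**Figure D1:**
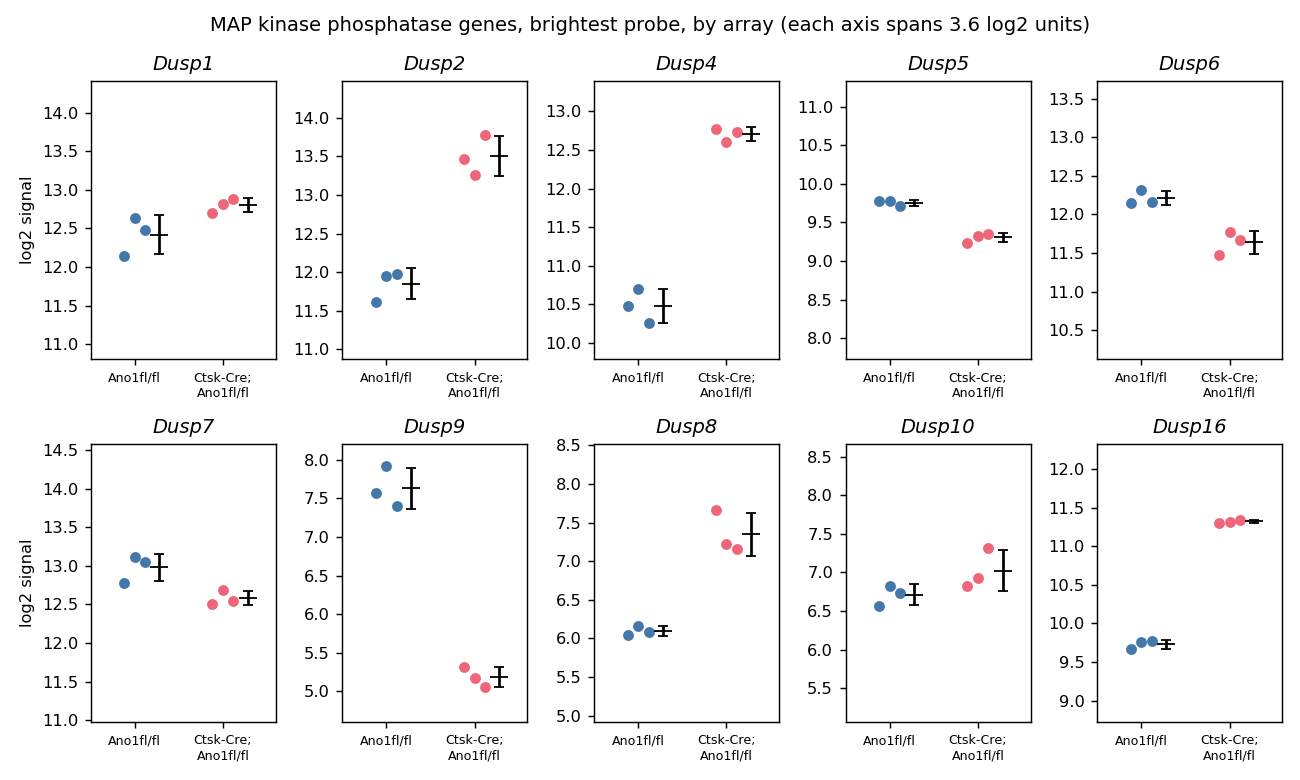
Log2 signal of the brightest probe of each of the 10 genes on each array. Points are single arrays (3 Ano1fl/fl in blue, 3 Ctsk-Cre;Ano1fl/fl in red), bars give the mean and the SD, and every panel spans the same number of log2 units on its own axis, since levels of different probes cannot be compared. The groups lie apart in 9 panels and overlap in that of Dusp10.

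Within the nuclear, inducible class, 2 of the 4 genes were higher, 1 was lower and 1 did not pass, where 23.0% of all genes were higher and 28.5% lower. Dusp2, a phosphatase of activated immune cells, was read by a single probe at mm9 chromosome 2 from 127163930 to 127163989. Its log2 signals were 11.62, 11.96 and 11.98 on the control arrays and 13.47, 13.26 and 13.78 on the Cre arrays. All Cre values were more than 1 log2 unit above all control values. The difference was 1.65 with a standard error of 0.16, or 3.14-fold (limma adjusted p = 0.000441), and 6.67% of the tested genes had a higher difference.

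Dusp4 acts on ERK and JNK in the nucleus and is itself induced by ERK signaling. It had the largest positive difference of the brightest probes of the family. Its brightest probe, at mm9 chromosome 8 from 35884806 to 35884865, gave log2 signals of 10.48, 10.70 and 10.26 on the control arrays and 12.78, 12.60 and 12.74 on the Cre arrays. The lowest Cre array was well clear of the highest control array, and the groups did not overlap. The difference was 2.23 with a standard error of 0.13, or 4.68-fold (limma adjusted p = 5.98e-05), and 4.83% of the tested genes had a higher one. A second Dusp4 probe, from 8 from 35882045 to 35882104 in the same notation, gave 9.46, 9.57 and 8.91 on the control arrays and 11.16, 11.14 and 11.34 on the Cre arrays. The probes gave the same direction, the second with a difference of 1.90 (standard error 0.18, limma adjusted p = 0.000373).

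Dusp1, the broadly acting member that removes phosphate from p38, JNK and ERK and is induced by stress, growth factors and glucocorticoids, had a small difference. Its log2 signals were 12.14, 12.63 and 12.48 on the control arrays and 12.70, 12.82 and 12.88 on the Cre arrays, for a probe at mm9 chromosome 17 from 26642624 to 26642683. The groups did not overlap, but the gap between them was narrow and the control arrays were spread more widely than the Cre arrays. The difference was 0.38 with a 95% interval of 0.05 to 0.72, and it did not pass (limma adjusted p = 0.057). It was positive under all 16 alternative ways of processing and passed under 5 of them, between 0.36 and 0.49.

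Dusp5 is the nuclear phosphatase that acts on ERK alone. Its brighter probe, at mm9 chromosome 19 from 53616779 to 53616838, gave 9.78, 9.78 and 9.71 on the control arrays and 9.24, 9.33 and 9.35 on the Cre arrays. The arrays of each group were close together and the Cre arrays were all lower. The difference was -0.45 with a standard error of 0.07, or 1.37-fold lower (limma adjusted p = 0.00306). The dimmer Dusp5 probe, at mm9 chromosome 19 from 53615682 to 53615741, was well above background on 3 control arrays and 1 Cre array, overlapped between the groups (4.79, 4.49 and 4.15 on the control and 4.40, 3.86 and 4.02 on the Cre arrays) and did not pass (difference -0.38, 95% interval -0.88 to 0.11, limma adjusted p = 0.163). So among the inducible nuclear genes Dusp2 and Dusp4 were higher while Dusp5 was lower on the same arrays.

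All 3 genes of the cytoplasmic, ERK-selective class were called lower on the Cre arrays, as were 28.5% of all genes tested. With 3 genes, nothing particular to the class is drawn from this count. Dusp9, an X-linked gene best known from placenta and embryonic stem cells and read by 1 probe at mm9 chromosome X from 70888467 to 70888526, had the largest difference of the family in the fit reported here. Its log2 signals were 7.57, 7.92 and 7.40 on the control arrays and 5.31, 5.18 and 5.06 on the Cre arrays. Every array was well above background and the groups were far apart. The difference was -2.45 with a standard error of 0.15, or 5.45-fold lower (limma adjusted p = 7.49e-05), and 0.659% of the tested genes had a lower one. The size depended on the starting signal and background handling: with normexp correction of the spot means the difference was -1.38, and with the median spot brightness of the series table -1.67, both still past the test. Under these settings, and without control replicate 2 (-2.29), the brightest Dusp4 probe differed by more (2.19, 2.22 and 2.33).

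Dusp6 is the best known feedback inhibitor of ERK in the cytoplasm, and its transcript is often used as a readout of ERK activity. Its probe, at mm9 chromosome 10 from 98729985 to 98730044, gave 12.15, 12.32 and 12.17 on the control arrays and 11.48, 11.77 and 11.67 on the Cre arrays. The Cre arrays were all below the control arrays. The difference was -0.57 with a standard error of 0.10, or 1.49-fold lower (limma adjusted p = 0.0048), and it passed under all 16 alternatives, between -0.65 and -0.49.

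Dusp7, the closest relative of Dusp6 in substrate and place, was also lower, by less. The log2 signals of its probe, at mm9 chromosome 9 from 106277697 to 106277756, were 12.78, 13.11 and 13.05 on the control arrays and 12.51, 12.69 and 12.55 on the Cre arrays. The lowest control array and the highest Cre array were close, though they did not cross. The difference was -0.40 with a standard error of 0.11, or 1.32-fold lower (limma adjusted p = 0.0245). This call was the least stable of the 8: it was lost without control replicate 2 (-0.33), without control replicate 3 (-0.36), without Cre replicate 1 (-0.36), without Cre replicate 3 (-0.39) and with the t-test that the methods name, with adjusted p between 0.0064 and 0.080 over its 16 alternatives.

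In the class that acts on JNK and p38, 2 of the 3 genes were higher and none was lower, against 23.0% higher and 28.5% lower among all genes. Dusp16, a JNK-selective phosphatase that shuttles between nucleus and cytoplasm, was read by 3 probes. The brightest, at mm9 chromosome 6 from 134665783 to 134665842, gave 9.66, 9.76 and 9.77 on the control arrays and 11.30, 11.31 and 11.34 on the Cre arrays. The replicates were tighter than for any other brightest probe of the family on the Cre side, with an SD of 0.020. The difference was 1.59 with a standard error of 0.07, or 3.01-fold (limma adjusted p = 2.43e-05), the smallest adjusted p of the family.

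The other Dusp16 probes were higher as well, by different amounts. A_51_P242634, at mm9 chromosome 6 from 134665656 to 134665696, was not well above background on any control array (3.36, 3.39 and 4.01) and was so on all 3 Cre arrays (5.73, 5.60 and 5.96). Its signal was at least 3.44-fold higher on the Cre arrays, a lower limit that sets each control array at the dimmest signal the scanner marked as well above background there, or at the probe's own where that was higher (limma adjusted p = 0.000319). The probe entered the test through the Cre arrays alone, where it was high, so this p-value is no separate support for the direction. This limit holds for the processed signal alone: the log2 difference was 2.17 as reported, 0.64 with normexp correction and 0.97 with the series table, and the latter values are smaller than the limit. A_52_P374825, at mm9 chromosome 6 from 134687549 to 134687608, gave 5.29, 5.43 and 5.81 on the control arrays and 6.28, 6.30 and 6.08 on the Cre arrays. Here the gap between the groups was smaller, and the difference was 0.71 ± 0.15 (SE, limma adjusted p = 0.00827), or 0.31 with normexp and 0.46 with the series table, both past the test.

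Dusp8, which acts on JNK and p38, was read by 2 probes in the same transcript. The brighter, at mm9 chromosome 7 from 149265636 to 149265695, gave 6.04, 6.16 and 6.09 on the control arrays and 7.67, 7.22 and 7.15 on the Cre arrays. All Cre arrays were higher, and they were spread more widely than the control arrays. The difference was 1.25 with a standard error of 0.15, or 2.38-fold (limma adjusted p = 0.000815). The dimmer probe, at mm9 chromosome 7 from 149267534 to 149267593, gave 5.86, 5.80 and 5.56 on the control arrays and 7.67, 7.44 and 7.37 on the Cre arrays. It had the same direction, with a difference of 1.75 (standard error 0.12, limma adjusted p = 0.000111). With normexp correction these differences were 0.78 and 1.07, both past the test.

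Dusp10, which acts on JNK and p38 in both nucleus and cytoplasm, did not pass. Its log2 signals were 6.56, 6.83 and 6.73 on the control arrays and 6.82, 6.93 and 7.32 on the Cre arrays, for a probe at mm9 chromosome 1 from 185898608 to 185898667. The groups overlapped, since the highest control array was level with the lowest Cre array. The difference was 0.32 with a 95% interval of -0.05 to 0.68 (limma adjusted p = 0.121), and it passed under 0 of 16 alternatives, with adjusted p from 0.061 to 0.29. The interval holds the difference of Dusp1 and lies below those of Dusp8 and of the brightest Dusp16 probe.

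**Figure D2:**
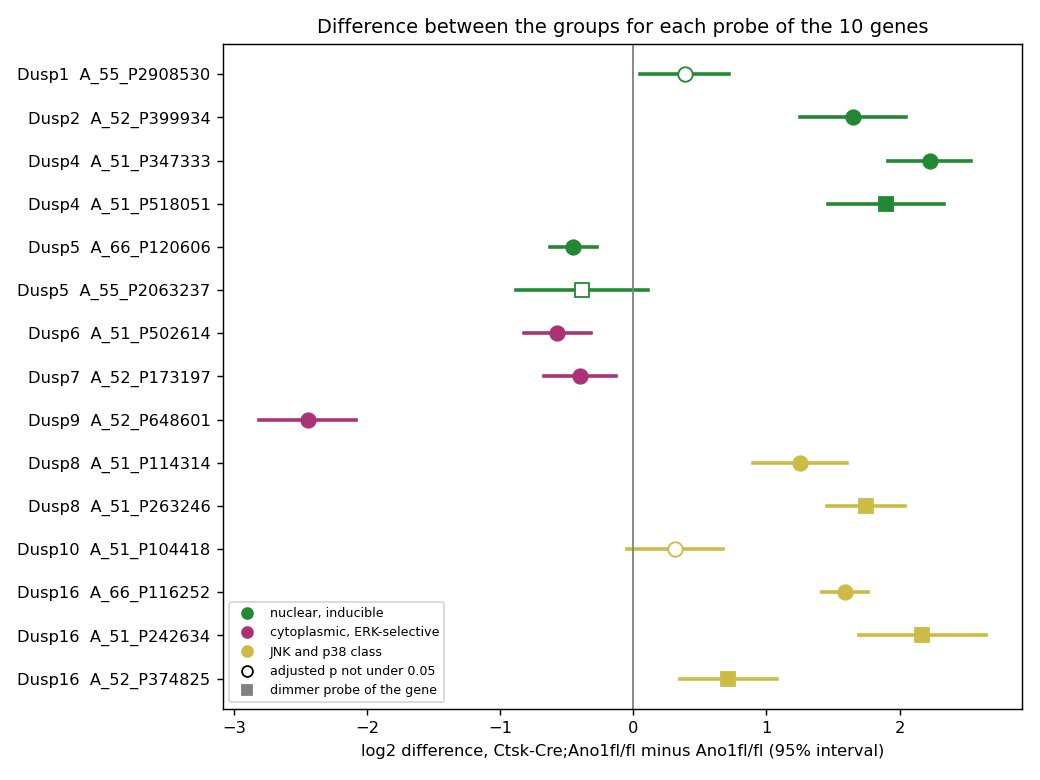
Difference in mean log2 signal between the groups for each of the 15 probes, with 95% intervals. Colours give the class, open symbols the probes that did not pass limma at an adjusted p under 0.05, and squares the dimmer probes of a gene. The 3 cytoplasmic, ERK-selective genes lie to the left of 0, and of the 12 probes that passed 8 lie to the right. Among all probes tested, 21.8% passed as higher and 30.6% as lower.

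Probes of the same gene never differed in direction. The 4 genes with more than 1 probe had differences of 2.23 and 1.90 (Dusp4), -0.45 and -0.38 (Dusp5), 1.25 and 1.75 (Dusp8), and 1.59, 2.17 and 0.71 (Dusp16). The 2.17 is that of the probe not well above background on any control array, so its size is uncertain. No probe of the 15 changed sign under any alternative run for it, as the plot of alternatives shows. Changes of filter, moderation, test, block or adjustment leave the difference itself as it is, however. The mean of a gene's probes does so too where a gene has 1 probe. Only the other settings could have moved a sign. Of 228 alternative values, 218 stayed on the same side of the threshold, and the 10 that crossed it were those of Dusp1 and Dusp7.

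**Figure D3:**
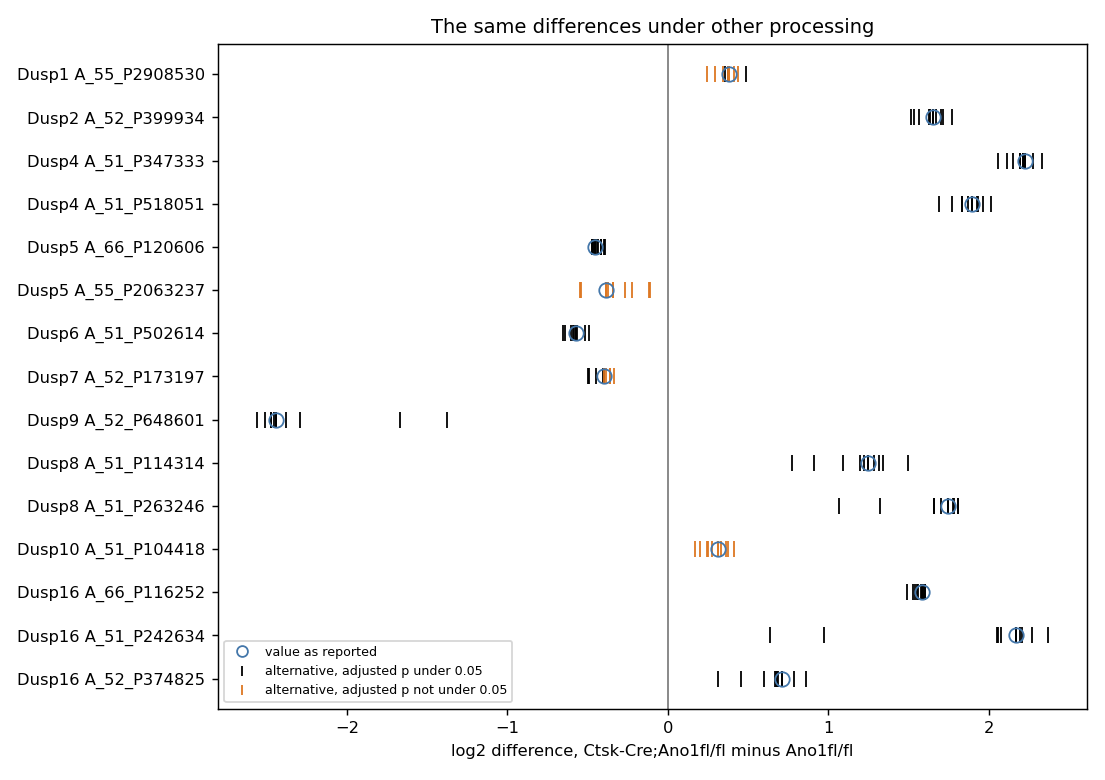
Log2 difference of each of the 15 probes as reported (circles) and under each alternative way of processing (ticks, black where the adjusted p was under 0.05 and orange where it was not). The ticks of Dusp9, Dusp8 and the dimmer Dusp16 probes that lie nearest to 0 are those of normexp correction and of the series table, and no tick lies on the other side of 0 from its circle. Alternatives that change only the filter, the test or the adjustment have their ticks at the circle by construction.

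The kinases that these phosphatases act on, and the genes around them, were counted in the same fit by lists of pathway members. Each count is read against the 23.0% of all genes called higher and the 28.5% called lower, and nothing particular to a list is drawn from it. Of 12 tested MAP kinase genes, 4 were higher (33.3%) and 4 lower (33.3%), with a median log2 difference of -0.11. Of the higher genes, Mapk4 and Mapk12 entered the test through the Cre arrays alone, where they were high. Under the stricter filter, which keeps probes well above background on every array, 2 of 10 were higher and 4 lower. The ERK gene Mapk3 (-0.24), the JNK gene Mapk9 (-0.28) and the main p38 gene Mapk14 (-0.37) were lower by small amounts, while Mapk6 (0.49) and the p38 genes Mapk11 (1.43) and Mapk12 (3.04) were higher, Mapk12 from a signal well above background on 1 of the 3 control arrays. The lower calls were weak, with 1 or 2 MAP kinase genes called lower when any single array was left out. The value of Mapk6 is that of its brightest probe, and its other tested probes gave 0.03 and -0.05 (limma adjusted p = 0.912 and 0.86). Mapk12 was at 1.20 with normexp correction and 1.69 with the series table. Mapk4, an atypical MAP kinase, was not well above background on any control array and was at least 2.75-fold higher on the Cre arrays in the processed signal. Its log2 difference was 0.64 with normexp and 1.05 with the series table, both smaller than this limit. Mapk8, the other JNK gene tested, did not pass with its brightest probe (-0.08, limma adjusted p = 0.577), and of its 3 other tested probes 1 passed (-0.29, adjusted p = 0.044). Upstream, 1 of 7 MAP kinase kinases (14.3%) was higher (Map2k1, 0.38) and 1 lower (Map2k6, which activates p38, -0.62), and of 16 Raf and MAP3 kinases 3 were higher (18.8%) and 5 lower (31.3%), shares near those of all genes. With the replicate block 0 MAP kinase kinases were called higher. Map3k8, which activates ERK downstream of Toll-like and TNF receptors, was higher with its brightest probe (1.11), whereas its other probe was lower (-0.53). Both directions passed limma's test, so the array gives no single direction for this gene.

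Of 10 MAP kinase-activated kinases, 2 were higher (20%) and 5 lower (50%). Rps6ka2, a ribosomal S6 kinase that acts below ERK, had a difference of 1.04 (standard error 0.11, limma adjusted p = 0.000541), which was 0.64 with normexp and 0.56 as the mean of its probes. Rps6ka5, a nuclear kinase of ERK and p38 signaling that phosphorylates CREB and histone H3, was lower, with a difference of -1.41 (standard error 0.09, limma adjusted p = 9.15e-05). Rps6ka3 had its largest difference, -2.38, in a probe whose Cre arrays were spread widely (7.89, 10.14 and 9.70, standard error 0.56). The difference was -1.71 without Cre replicate 1 and -0.71 as the mean of the gene's probes, and with the methods' t-test it did not pass (adjusted p = 0.0583). The other tested probes of Rps6ka3 gave 0.13 and -0.42.

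Among other negative regulators, the Sprouty and Spred genes, inhibitors of receptor tyrosine kinase signaling to ERK, had 1 of 6 tested genes higher and 1 lower (16.7% each). Spry1 was at 6.97, 7.50 and 7.23 on the control arrays and 10.19, 10.58 and 10.09 on the Cre arrays, a difference of 3.05 (standard error 0.18, limma adjusted p = 6.64e-05), and Spry3 was lower, with a difference of -0.998 (limma adjusted p = 0.0209). The call of Spry3 was lost with no filter on dim probes, with the methods' t-test, without control replicate 2 and without Cre replicate 3, where 0 genes of the list were lower. The atypical dual-specificity phosphatases, which lack the docking domain, had 3 of 11 tested genes higher (27.3%) and 1 lower (9.09%) with a median of 0.10. The brightest Dusp14 probe was at 6.48, 6.71 and 6.53 on the control arrays and 9.75, 9.57 and 10.44 on the Cre arrays, a difference of 3.34 (standard error 0.23, limma adjusted p = 0.000104). Another probe of Dusp14 gave 3.25, while the dimmest one was lower and also passed (-0.53, limma adjusted p = 0.0223), and the mean of the gene's probes differed by 2.02. That dimmest probe had mean log2 signals of 4.42 on the control and 3.89 on the Cre arrays. On the Cre arrays the dimmest signals well above background were 3.70 to 4.22. The brighter probes thus gave the same direction, and the opposite one rests on a probe read near the limit of detection. Of 7 other phosphatases that act on MAP kinases 1 was higher (Ppm1a, 0.64) and 1 lower (Ptpn5, -0.43), 14.3% each. The call of Ptpn5 was lost under 7 of 16 alternatives, where 0 genes of the list were lower: with no filter, with the methods' t-test, with the mean of a gene's probes, and without control replicate 1, control replicate 2, Cre replicate 2 or Cre replicate 3. Of 7 scaffold genes, 2 were higher (28.6%; Lamtor3, 0.80, and Ksr1, 0.49) and 0 lower, and with the replicate block 1 scaffold gene was called.

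The immediate early and ERK-induced genes had the largest share of higher genes among the pathway lists. Of 19 tested, 13 were higher and 1 was lower on the Cre arrays, against 23.0% higher and 28.5% lower among all genes, and the median difference was 0.95. Nr4a1, an orphan nuclear receptor, was at 9.22, 9.16 and 9.40 on the control arrays and 12.73, 12.32 and 12.88 on the Cre arrays, a difference of 3.38 (standard error 0.16, limma adjusted p = 2.74e-05). Egr3 was at 6.40, 6.78 and 7.09 and 10.06, 9.63 and 10.33, a difference of 3.25 (standard error 0.23, limma adjusted p = 0.00013). The exception was Fos, the AP-1 subunit that osteoclast formation requires, at 13.87, 14.01 and 14.04 on the control arrays and 12.41, 12.58 and 12.38 on the Cre arrays, a difference of -1.52 (standard error 0.09, limma adjusted p = 7.21e-05). Dusp4, Dusp5 and Dusp6, like genes of this list, are known as transcriptional targets of ERK signaling, and of these Dusp4 was higher while Dusp5 and Dusp6 were lower.

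**Figure D4:**
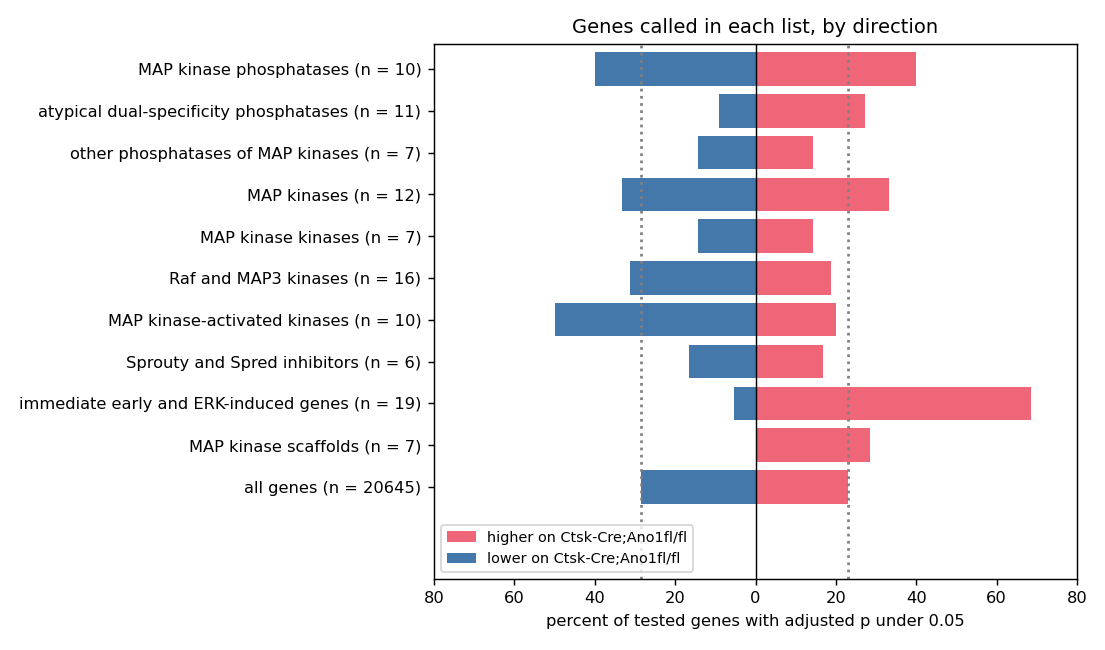
Share of the tested genes of each list that passed limma at an adjusted p under 0.05, higher (red, to the right) and lower (blue, to the left) on the Ctsk-Cre;Ano1fl/fl arrays, with the number tested. Dotted lines mark the shares among all 20645 genes, 23.0% higher and 28.5% lower. The MAP kinase phosphatases had 4 of 10 in each direction, and the immediate early and ERK-induced genes 13 of 19 higher.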

How the data were processed

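RNA from 6 cultures was hybridised to 6 one-colour Agilent mouse arrays, each labelled with Cy3. The authors deposited the output of Agilent Feature Extraction 10.7.1.1 per array, as linear intensity values: mean and median spot brightness, local background, and a processed signal that is background-subtracted and detrended within the array but not normalized between arrays. The series table, also intensity, was equal to the median spot brightness, the largest difference being 0. The methods name quantile normalization.

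The log2 of the processed signal was quantile normalized between arrays with limma 3.58.1 in R 4.3.3. Control spots were left out, outlier spots were treated as missing, 14 probes with a missing value were dropped, and spots of a probe were averaged. A probe was tested where it was well above background (at least 0.5 of its spots) on the 3 arrays of either group. A gene was represented by its brightest probe over the 6 arrays. The groups were compared with lmFit and eBayes, with Benjamini-Hochberg adjustment over the 31848 probes tested, and the code was tested on simulated data. Files were read with Python 3.11.15, pandas 2.3.3 and the R package data.table, version 1.17.8, and plots drawn with matplotlib 3.10.9. Probe positions are those of the array files (mm9). Of the 15 probes, 11 had an accession that matched RefSeq, all 11 with the same symbol. Promoter windows came from RefSeq (GRCm38.p6), and positions of the builds were never mixed.

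The 10 members, their classes and all lists were chosen with earlier results of these data known. The genes named from a pathway list by rule were up to 2 with the largest rise and 2 with the largest fall among those called, changed by more than 2-fold, with groups apart and the brighter group above background. The remaining names of list genes were chosen after their values were seen. Of 18 Raf and MAP3 kinases, Map3k20 was not found by name, and of 4 erythroid markers, Hbb-bs. T and NK cell markers had 1 of 6 tested genes higher and 2 lower, endothelial markers 1 of 4 higher and 1 lower, and erythroid markers 1 of 1 lower; Tek and Alas2 were above background on 0 arrays.

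Alternatives were run one by one: scaling to the 75th percentile, normexp on the spot means with an offset of 50, the series table (median brightness, neither background-subtracted nor detrended), no filter and a stricter filter on dim probes, trend and robust moderation, the methods' t-test, a replicate block, each array left out, the mean of a gene's probes, adjustment over genes, and a 2-fold minimum. Normexp and the series table thus change the starting signal as well as the background handling. The 2-fold counts under these settings were added after seeing the data. The 6 arrays limit the precision.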

Additional observations from a re-analysis of the deposited data

How the results depend on the processing

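No difference of the 15 probes changed sign, though settings that change only the filter, moderation, test, block or adjustment cannot move a difference. Of 228 alternative values, 218 stayed on the same side of the threshold, 5 (Dusp7) lost the call and 5 (Dusp1) gained it. Of 174 such values for 11 other genes (Dusp14, Mapk4, Mapk12, Map3k8, Rps6ka2, Rps6ka3, Rps6ka5, Spry1, Nr4a1, Egr3 and Fos), 173 stayed and 1, Rps6ka3 with the methods' t-test (-2.38, adjusted p = 0.0583), lost the call. The remaining list genes with values in the text were followed through the counts of their lists alone, in which Spry3, Ptpn5 and Map2k1 lost calls. With the replicate block the MAP kinases called lower went from 4 to 1 and the scaffolds called from 2 to 1. A 2-fold minimum moved the genes called from 10641 to 3526 and the family's genes from 8 to 5, since it removes smaller changes by construction. With single arrays left out, 13812 to 14915 probes, 11 to 12 of the family's probes, 8794 to 9424 genes and 7 to 8 of the family's genes were called. The other settings gave 14150 to 17500 probes and 9008 to 11392 genes, with 7 to 9 of the family's genes.

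Dim probes depended most on the starting signal and background handling: with normexp the difference of the Dusp16 probe A_51_P242634 was 0.64 and with the median brightness of the series table it was 0.97, against 2.17. With normexp, Mapk4 was at 0.64 and Mapk12 at 1.20. With the mean of a gene's probes, Map3k8 was at 0.29, Rps6ka3 at -0.71 and Dusp14 at 2.02. Short lists varied in count, from 1 to 5 for the other phosphatases of MAP kinases (2 as reported) from 5 to 9 for the MAP kinases (8), from 1 to 4 for the Sprouty and Spred genes (2) and for the MAP kinase kinases (2), from 2 to 5 for the atypical phosphatases (4), from 5 to 8 for the Raf and MAP3 kinases (8) and from 1 to 3 for the scaffolds (2).

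Same-numbered arrays did not deviate together (r of -0.022, -0.085 and -0.094), so the replicate numbers were not treated as pairing the cultures. With the replicate block, 14150 probes, 9008 genes, 13 of the family's probes and 9 of its genes were called, Dusp1 being the gene gained (adjusted p = 0.0493). Slide and scan could not be fitted as a block, since all arrays shared 1 of each.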
